A study of Danio rerio with 9 samples.

Results

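The response of *mych* mutant Müller glia (MG) to injury was compared with that of wild-type (Wt) MG in 6 RNAseq libraries of a series of 9. The libraries were chosen by their labels alone, 3 of *mych*-/- MG at 2 days post injury (dpi) and 3 of Wt MG at 2 dpi, and all 20484 genes that passed a filter on low counts were compared. Both groups were GFP+ cells, isolated by sorting after needle pokes to the retina of *gfap:GFP* zebrafish, and the mutants carried *gfap:GFP* as well. Per the study's methods the fish were adults of both sexes, retinas were pooled before sorting, and the allele is 1 germline frameshift line made with Cas9, so the mutant group stands for 1 line. GFP in *gfap:GFP* retinas marks MG, activated MG and the progenitors that MG give rise to. The other 3 libraries, of MG from Wt uninjured retinas, entered the filter on low counts, the scaling and the estimate of the spread between replicates. They were not part of the comparison itself, and their levels are given beside some genes. No uninjured mutant group was analysed here, so a difference between genotypes that precedes injury and one that arises after it cannot be told apart.

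MG are the radial glia of the retina. In zebrafish they leave quiescence after injury, acquire properties of progenitors, divide and give rise to neurons. Myc proteins are transcription factors that pair with Max at E-box sequences. In many vertebrate cells they are known for raising the genes of ribosome assembly, ribosomal RNA synthesis, translation, nucleotide synthesis and cell division. *mych* is a member of the family found in fish.

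The guide that defined the mutant genotype was mych-gRNA 1, designed against *mych* itself. It is shown in capitals throughout because all 18 bases are guide, 5′ to 3′, as listed with the study's oligonucleotides.
mych-gRNA 1: GGAGACTGAGGCGGTGTG
The mutation alters the reading frame, and the level of the *mych* transcript (ENSDARG00000077473) was 180.4, 233 and 319 CPM (counts scaled to a common library size) in Wt replicates 1 to 3 and 145, 197 and 158 CPM in the mutants. The groups overlapped. The log2 fold change, here and below mutant over Wt at 2 dpi, was -0.55 (edgeR adjusted p 0.335, SE 0.30).

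The 6 libraries held 56226657 to 77133615 counts each. Of 27 MG markers 0 were called by edgeR or DESeq2. At an unadjusted p under 0.05 by edgeR, 2 were lower and 1 higher, against 10.5% and 8.96% of all genes tested. The MG markers were detected in every injured group. They summed to 16897 to 26253 CPM in the Wt and 14660 to 38096 CPM in the mutant libraries. The highest sum was in mutant replicate 2, where 13 MG markers lay above the highest Wt library and 2 below the lowest. The lowest sum was in mutant replicate 3, where 17 lay below the lowest Wt library and 2 above the highest. Markers of other cells were also present. Those of cones summed to 16570 to 30312 CPM in Wt and 21570 to 30439 CPM in mutant libraries, and those of rods to 1522 to 4059 and 1774 to 3552 CPM. Those of microglia and macrophages summed to 571 to 870 and 394 to 640 CPM, with 16 markers below a log2 fold change of 0 and 16 above. Those of the retinal pigment epithelium summed to 441, 109 and 48.0 CPM in Wt replicates 1 to 3 and 59.2 to 123 CPM in the mutants. Of these, 9 lay below 0 and 4 above (median -1.17), with 0 called by edgeR. The labels do not say that replicates came from separate animals, so p-values measure only the spread between these samples. In such bulk samples, fewer cells of a type and less RNA per cell cannot be told apart.

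A gene counts as called where the change exceeded 0.5 on the log2 scale, up or down, with an adjusted p-value no higher than 0.05. Between genotypes 347 genes were called, 1.69% of those tested. Lower genes were the majority: 272 were lower in the mutants (1.33% of genes tested) and 75 were higher (0.366%). The median log2 fold change was -1.16 over the called lower genes and 1.63 over the called higher genes, against 0.03 over all genes tested. Of the 272 lower genes, 137 belonged to at least 1 of 29 lists of functions, and 94 to a list of ribosome assembly, ribosomal proteins or translation. Of the 75 higher genes, 5 belonged to any of the 29. The lists were chosen with earlier results of these data known, 16 as candidates for lower and 5 as candidates for higher. The difference between 137 and 5 partly follows from that choice, and the share of all tested genes in the lists was not computed. The smallest adjusted p-value was 0.000361 among lower and 0.00237 among higher genes. The number of calls moved over 1.5 times with each library left out. It was 8 without Wt replicate 2, 9 without mutant replicate 1, 28 without mutant replicate 3, 53 without Wt replicate 3, 982 without Wt replicate 1 and 1026 without mutant replicate 2. It was 168, 164 and 227 without uninjured replicate 1, 2 or 3. Each list below is therefore given by its median and by its order across libraries as well as by its calls, which are those of edgeR unless DESeq2 is named. Over all 20484 genes tested DESeq2 called 1111 lower and 603 higher, which is the background for its counts by list. Among the lists with called lower genes, DESeq2 called 1 member higher in nucleotide synthesis and 1 in splicing, and 0 in the rest of the lists of growth and division below. At an unadjusted p under 0.05 by edgeR, 8.96% of all genes tested were higher and 10.5% lower. At that p 2 splicing genes were higher, as was 1 gene each of the ribosomal proteins, translation factors, chaperonins, nucleotide synthesis and nuclear transport. With Wt replicate 2 or mutant replicate 1 left out, at most 1 member of each list was called.

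By number of edgeR calls, the factors that assemble ribosomes led the functions that were lower in the mutants. These proteins and small nucleolar RNPs cut, fold and modify ribosomal RNA precursors in the nucleolus. Of 58 genes of small subunit assembly, 29 were called lower and 0 higher, with a median log2 fold change of -1.01. Of 65 genes of large subunit assembly, 24 were called lower and 0 higher, with a median of -0.98. Of 22 genes of the snoRNPs and the nucleolar core, 9 were called lower and 0 higher, with a median of -0.99. The medians stayed between -1.11 and -0.85 for all 3 lists with any library left out. The calls were less steady in those fits, at 0 to 37, 1 to 36 and 0 to 12 in the same order of lists.

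*UTP15*, a subunit of the processome that matures the small subunit, was at 48.5, 62.9 and 56.9 CPM in the Wt and 14.2, 21.4 and 15.8 CPM in the mutant libraries. The groups lay far apart, with a log2 fold change of -1.71 (edgeR adjusted p 0.0102, SE 0.22). *RRP9*, a protein of the U3 snoRNP, fell by 1.51 on the log2 scale (edgeR adjusted p 0.0168, SE 0.23) and *UTP23*, which acts in processing of the same precursor, also by 1.51 (edgeR adjusted p 0.0195, SE 0.25). *NOL10*, a nucleolar protein of the same pathway, was the exception in its order: mutant replicate 1 was the highest of the mutants, at 30.6 CPM against 21.1 and 22.2 CPM, still below the lowest Wt library at 62.2 CPM. *HEATR1* (also called UTP10) and *RIOK2*, a kinase of late assembly, fell by 0.92 and 1.14.

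Among the snoRNP proteins both classes were represented. *NOP58*, *NOP56*, *FBL* and *SNU13* make up the box C/D particles, which guide methylation of ribosomal RNA. *NOP58* was at 184, 249 and 269 CPM in the Wt and 66.7, 92.2 and 88.5 CPM in the mutants, a log2 fold change of -1.51 (edgeR adjusted p 0.0126, SE 0.21). *SNU13* (ENSDARG00000023299) was at 50.3, 78.4 and 82.9 CPM in the Wt and at 17.8, 19.4 and 17.1 CPM in the mutants, so the mutant libraries differed less from each other than the Wt libraries did. Its log2 fold change was -1.96 (edgeR adjusted p 0.00506, SE 0.23). *FBL*, the methyltransferase, fell by 1.22, and *NOP56* fell by 1.07. *DKC1*, the pseudouridine synthase of the box H/ACA particles, was at 165, 220.2 and 209.5 CPM in the Wt and 60.05, 80.6 and 77.3 CPM in the mutants. It fell by 1.45 on the log2 scale (edgeR adjusted p 0.0102, SE 0.19), and its partner *NHP2* fell by 1.83 (edgeR adjusted p 0.019, SE 0.29).

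For the large subunit, *npm1a* (nucleophosmin, an abundant nucleolar chaperone) showed the largest fall of its list. It was at 323, 404 and 387 CPM in the Wt and 64.4, 112 and 87.9 CPM in the mutants, a log2 fold change of -2.07 (edgeR adjusted p 0.00356, SE 0.22). In the uninjured libraries it was at 17.0 to 20.9 CPM, so the mutants lay between both Wt groups. *nop16*, *rsl1d1* and *rrp1* fell by 1.55, 1.48 and 1.42. *PES1*, a subunit of the PeBoW complex, fell by 1.16 and *ncl* (nucleolin) fell by 1.102.

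The RNA polymerases that transcribe ribosomal and transfer RNA were lower by a smaller margin. Of 35 subunits and factors of RNA polymerases I and III, 2 were called lower and 0 higher, and 22 were lower in every mutant than in every Wt library, with a median of -0.69. Over all genes tested, 14.5% were lower in every mutant library and 9.28% higher, which is the background for such counts. The called members were *polr1e*, a subunit of polymerase I, with a log2 fold change of -1.45 (edgeR adjusted p 0.0417, SE 0.30), and *polr3gla*, a subunit of polymerase III, with -1.67 (edgeR adjusted p 0.0253, SE 0.30).

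**Figure D1:**
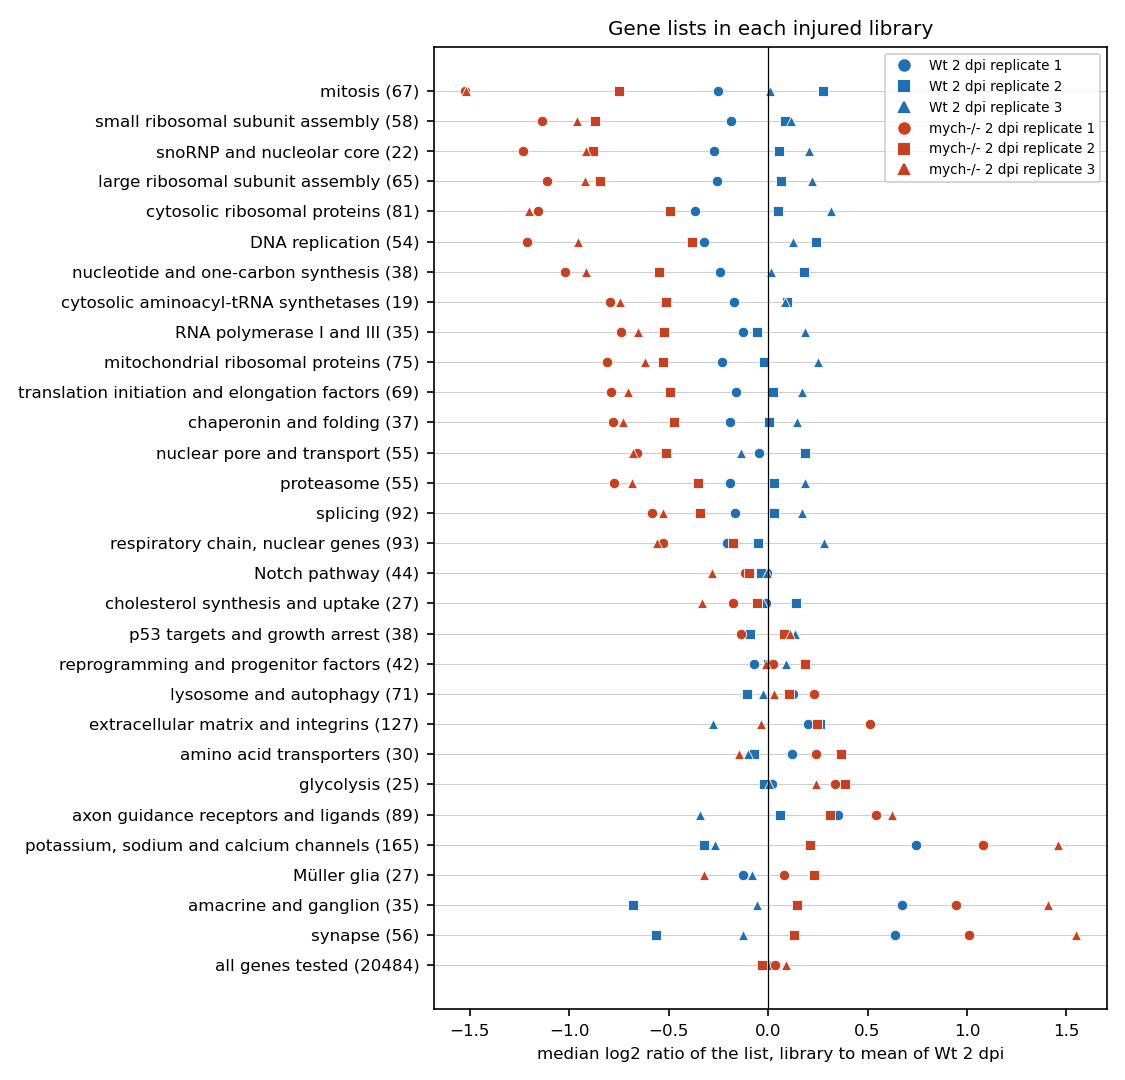
Median log2 ratio of each gene list in each injured library to the mean of the 3 Wt 2 dpi libraries (x axis), with lists on the y axis and the number of genes tested in brackets. Wt libraries are blue and *mych*-/- libraries red, with the marker shape giving the replicate. Ribosome assembly lies near -1 in all 3 mutants, mitosis and DNA replication are less low in mutant replicate 2 (squares), and the channel, amacrine and ganglion, and synapse lists are high in Wt replicate 1 as well as in mutant replicates 1 and 3.

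The ribosomal proteins themselves and the translation machinery were lower too. Of 81 cytosolic ribosomal proteins, 14 were called lower and 0 higher, and 68 were lower in every mutant library, with a median of -0.95. The count of calls was unstable in this list, as in others. It was 0 without uninjured replicate 1, Wt replicate 2 or 3, or mutant replicate 1 or 3. It was also 0 with the replicate number as a block, 1 with the 6 libraries alone and 1 with upper quartile scaling. It was 66 without Wt replicate 1 and 76 without mutant replicate 2, and DESeq2 called 75. The median stayed between -1.21 and -0.78 with any library left out. *RPL6*, which had the smallest adjusted p of the list, was at 1406, 1844 and 2028 CPM in the Wt and 674, 998 and 701 CPM in the mutants, with a log2 fold change of -1.15 (edgeR adjusted p 0.0387, SE 0.23). Mutant replicate 2 was the highest of the 3. *RPS24* was at 193, 322 and 225 CPM in the mutants against 392 to 689.9 CPM in the Wt. *RPS6* fell by 1.02 (edgeR adjusted p 0.0462, SE 0.22), and *RPL5* (ENSDARG00000015862) by 1.13. A further ID with the symbol *RPL5*, ENSDARG00000020197, had a log2 fold change of -0.99 and an edgeR adjusted p of 0.0589.

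Of 69 translation initiation and elongation factors, 8 were called lower and 0 higher, with a median of -0.66. They included *eef1da* and *EEF1G*, subunits of the complex that recharges elongation factor 1A, with log2 fold changes of -1.20 (edgeR adjusted p 0.036) and -0.99 (edgeR adjusted p 0.0487). *EIF5A2*, of the hypusinated factor family, fell by 1.05 and *eif3ea* by 0.98. Of 19 cytosolic aminoacyl-tRNA synthetases, which charge transfer RNA, 5 were called lower, 0 were called higher and 16 were lower in every mutant library, with a median of -0.70. *IARS1*, the isoleucine enzyme, was at 186, 215 and 195 CPM in the Wt and at 86.2, 85.6 and 86.5 CPM in the mutants. The mutant libraries were nearly equal, and the log2 fold change was -1.21 (edgeR adjusted p 0.0102, SE 0.16). *QARS1*, *KARS1*, *FARSA* and *RARS1* fell by 1.09, 1.06, 0.98 and 0.78. Among 75 mitochondrial ribosomal proteins, 3 were called lower and 0 higher, with a median of -0.68 and 53 lower in every mutant library. *mrpl36* was the lowest, at 20.7, 30.7 and 23.9 CPM in the Wt and 5.27, 6.51 and 4.85 CPM in the mutants.

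Protein folding followed the same direction. Of 37 chaperonin and folding genes, 5 were called lower and 0 higher, with a median of -0.65. The TCP-1 ring subunits *CCT3*, *CCT4* and *CCT5* fell by 0.88, 0.99 and 0.88, the mitochondrial chaperonin *HSPD1* by 1.21 (edgeR adjusted p 0.0372, SE 0.24) and the prefoldin subunit *PFDN4* by 1.22. Of 55 proteasome genes 2 were called lower and 0 higher (median -0.60), *PSMD9* and *PSME3*, which fell by 1.11 and 1.03.

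Enzymes that make nucleotides were lower along the purine, pyrimidine and deoxynucleotide branches. Of 38 genes of nucleotide and one-carbon synthesis, edgeR called 9 lower and 0 higher, with a median of -0.79, and DESeq2 called 20 lower and 1 higher. *CAD*, which starts pyrimidine synthesis, was at 524, 617 and 511 CPM in the Wt and 206, 267 and 236 CPM in the mutants, a log2 fold change of -1.22 (edgeR adjusted p 0.014, SE 0.18). *UMPS* and *CTPS1*, further down that branch, fell by 1.18 and 1.21 (the *CTPS1* ID being ENSDARG00000030700). In the purine branch *GART* and *ATIC* fell by 1.27 and 1.36 and *IMPDH2*, the step towards guanine nucleotides, by 1.15. *dhfr* and *SHMT1*, of the folate cycle, fell by 1.23 and 1.42. The largest fall was that of *RRM2*, the small subunit of ribonucleotide reductase. Its log2 fold change was -2.33 (edgeR adjusted p 0.014, SE 0.34) for ENSDARG00000020711, with 253, 357 and 395 CPM in the Wt against 85.0, 62.5 and 51.9 CPM in the mutants. A further ID with that symbol, ENSDARG00000078069, stood at 140.1, 227 and 161 CPM in the Wt and at 110.2, 328 and 117 CPM in the mutants, with a log2 fold change of 0.07 (edgeR adjusted p 0.956). The copies thus differed in these libraries, and where copies resemble each other the split of reads between them is uncertain.

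Genes of the cell cycle were lower, with the division phase ahead of the replication phase in calls. Of 67 mitosis genes, 9 were called lower and 0 higher and 59 were lower in every mutant library, with a median of -1.26, lower than that of any other list of functions. *CCNB1*, the mitotic cyclin, was at 86.2, 113 and 86.7 CPM in the Wt and 26.2, 38.2 and 25.7 CPM in the mutants (log2 fold change -1.67, SE 0.27, edgeR adjusted p 0.0195). *plk1*, a kinase of mitotic entry, was at 96.9, 138 and 108 CPM in the Wt and 28.7, 55.0 and 28.2 CPM in the mutants (log2 fold change -1.61, SE 0.27, edgeR adjusted p 0.0204). In both genes mutant replicate 2 stood above the other mutants and below each Wt library. The spindle genes *NUSAP1*, *kif11* and *TPX2* fell by 1.84, 1.49 and 1.37, and *mki67*, the proliferation marker, by 1.33. In the uninjured libraries *CCNB1* was at 0.381 to 0.862 CPM and *plk1* at 0.761 to 0.923 CPM. Of 54 DNA replication genes, 1 was called lower and 0 higher, with a median of -0.86 and 28 lower in every mutant library. The called gene was the clamp loader subunit *RFC3*, with a log2 fold change of -1.15 (edgeR adjusted p 0.0384, SE 0.23). Without mutant replicate 2, 17 replication genes and 27 mitosis genes were called lower, and without Wt replicate 1, 9 and 19. Without Wt replicate 2 or 3, or mutant replicate 1 or 3, 0 genes of either list were called.

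Transport across the nuclear envelope and splicing were lower to a lesser extent. Of 55 genes of nuclear pores and transport, 9 were called lower and 0 higher, with a median of -0.61. *KPNA2*, an importin alpha, was at 113, 179.8 and 166 CPM in the Wt and 33.9, 52.1 and 42.3 CPM in the mutants (log2 fold change -1.84, SE 0.30, edgeR adjusted p 0.0195). *NUP210* and *ranbp1* fell by 1.197 and 1.16. Of 92 splicing genes, edgeR called 5 lower and 0 higher, with a median of -0.53, and DESeq2 called 28 lower and 1 higher. The members called by edgeR were *SNRPA*, *SNRPB*, *SF3B4*, *HNRNPAB* (ENSDARG00000099865) and *hnrnpa0l*, which fell by 0.83 to 1.01. The nuclear genes of the respiratory chain were shifted the same way with fewer calls. Of 93 tested, with a median of -0.43, edgeR called 0. DESeq2 called 13 lower and 0 higher, against 1111 and 603 of all 20484 genes tested. At an unadjusted p under 0.05 by edgeR, 36 were lower and 1 was higher, against 10.5% and 8.96% of all genes tested. In every mutant library 39 were lower and 1 was higher, against 14.5% and 9.28% of all genes. By list median, mutant replicate 2 (-0.18) lay above Wt replicate 1 (-0.21), so the groups overlapped.

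**Figure D2:**
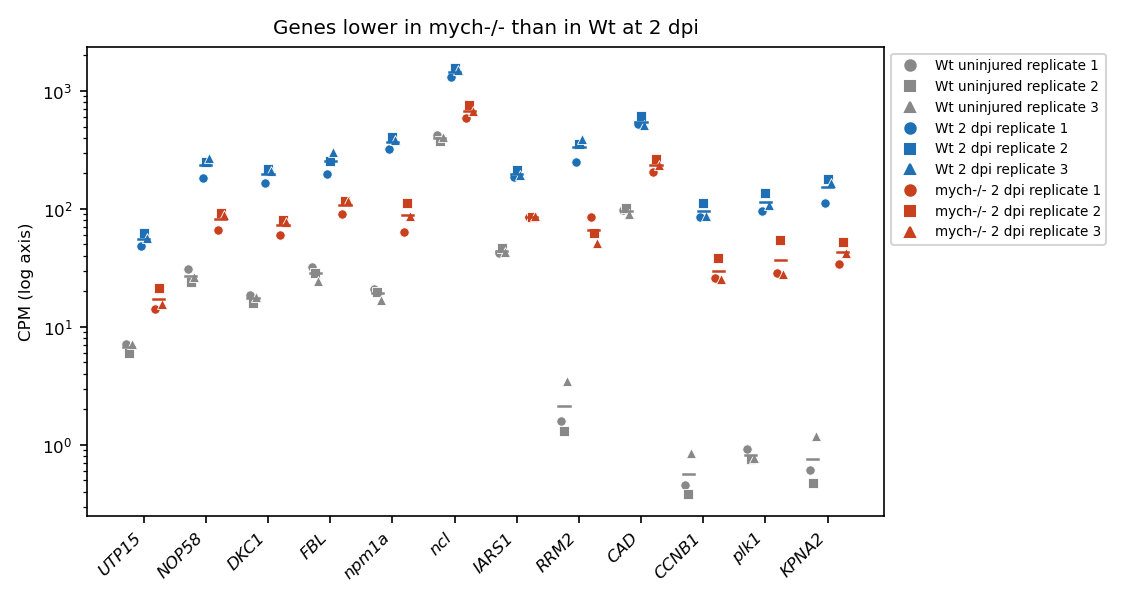
CPM (log axis) of 12 called genes that were lower in *mych*-/- than in Wt MG at 2 dpi, with 1 point per library, a short line for the mean of 3 libraries and grey points for Wt uninjured MG. In each gene the 3 red points of the mutants lie below the 3 blue points of the Wt, as for *UTP15* (14.2 to 21.4 against 48.5 to 62.9 CPM).

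Several other lists held few calls or none. Glycolysis held 0 called genes of 25 (median 0.24), with 1 lower and 6 higher at an unadjusted p under 0.05 by edgeR. Over all genes tested 10.5% were lower and 8.96% higher at that p, which is the background for such counts here. Cholesterol synthesis and uptake held 0 called of 27 (median -0.17), with 3 lower and 0 higher at that unadjusted p, and targets of p53 held 0 called of 38 (median 0.05), with 4 lower and 3 higher. DESeq2 called 1 glycolysis gene in each direction, 1 cholesterol gene lower, and 1 lower and 2 higher targets of p53. Over all 20484 genes tested it called 1111 lower and 603 higher. Of 30 amino acid transporters 1 was called, *SLC38A3* (ENSDARG00000091061), a glutamine transporter, which was higher. Of 42 reprogramming and progenitor factors 1 was called, *INSM1*, higher, with a median of 0.07 over the list. At an unadjusted p under 0.05 by edgeR, 9 of them were higher and 3 lower, and DESeq2 called 2 higher and 3 lower. Of 44 genes of the Notch pathway 1 was called, *her4.3*, a Notch target, at 20.2, 16.1 and 55.47 CPM in the Wt and 0.452, 1.83 and 2.77 CPM in the mutants.

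The falls in ribosome assembly spanned a narrower range over the 3 mutant libraries than those of the ribosomal proteins and the cell cycle. The list median for small subunit assembly was -1.14, -0.87 and -0.96 in mutant replicates 1, 2 and 3, as a log2 ratio to the mean of the Wt libraries, against -0.19, 0.08 and 0.12 in the Wt libraries themselves. For large subunit assembly the mutants were at -1.11, -0.84 and -0.92. Cytosolic ribosomal proteins were at -1.15, -0.49 and -1.20, mitosis at -1.53, -0.75 and -1.52, and DNA replication at -1.21, -0.39 and -0.96. Mutant replicate 2 was thus the least changed in the last 3 lists. It was also the least changed in each of the 15 lists of growth and division whose median was below 0. In all 15, each mutant library had a lower median than each Wt library. These 15 come from 16 lists drawn up as candidates for being lower, with earlier results of these data known. Their shared direction partly follows from that choice. The exception was the amino acid transporters. Wt replicate 1 was the lowest Wt library in most of them, at -0.37 for ribosomal proteins and -0.32 for DNA replication, so the gap between the nearest libraries of each genotype was small for DNA replication (-0.39 against -0.32).

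Mutant replicate 2 had the fewest genes below the lowest Wt library for mitosis and DNA replication, but not for small or large subunit assembly. In mutant replicates 1, 2 and 3, 56, 57 and 54 of the 58 small subunit assembly genes lay below the lowest Wt library, or 96.6%, 98.3% and 93.1%. Over all genes tested these shares were 30.3%, 28.7% and 29.1%. For mitosis they were 67, 59 and 67 of 67 genes, and for DNA replication 50, 29 and 48 of 54. Of the 272 genes called lower, mutant replicate 2 showed the smallest change in 188, replicate 1 in 32 and replicate 3 in 52. Each of the 272 was lower in every mutant than in every Wt library, and in each the 3 mutants were all more than 0.5 below the Wt mean. The same test chose these genes, so this describes them and supports nothing further.

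**Figure D3:**
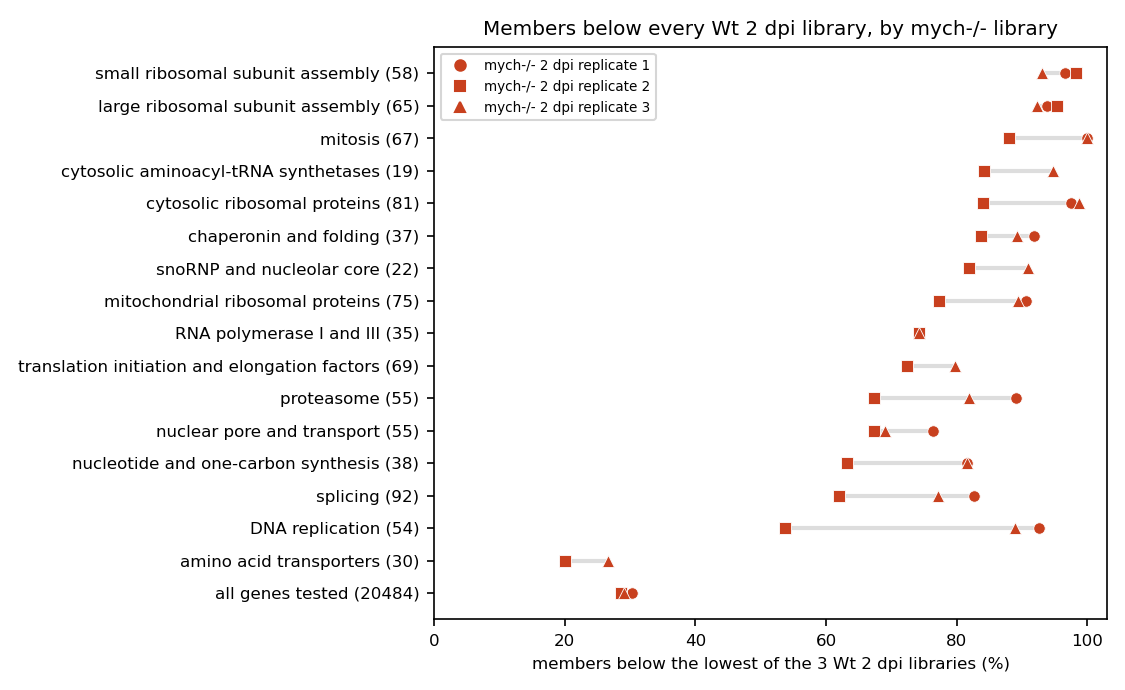
Share of each list's members (x axis, in percent) whose log2 CPM in a *mych*-/- library was below that of all 3 Wt 2 dpi libraries, with 1 marker per mutant library and the number of genes tested in brackets. Small subunit assembly spans 93.1% to 98.3%, DNA replication 53.7% to 92.6%, and all genes tested 28.7% to 30.3%.

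Among single genes, the evenness of the mutants ranged widely. Among called genes with a log2 fold change of at least 1 in size and a mean of at least 10 CPM over the 6 libraries, evenness was measured by the range of the 3 log2 ratios to the Wt mean. The most even of those with reads in the mutants were *IARS1* (0.02), *riox1*, a nucleolar oxygenase (0.06), and *ATXN1* (ENSDARG00000060862; 0.07), the last of which was higher in the mutants, at 73.4, 70.0 and 73.5 CPM against 41.1, 27.6 and 35.5 CPM. The least even were *her4.3* (2.54), *itgam.1* (2.11), *plxnb2a.2* (1.87), si:dkey-219c10.4 (1.74) and *NPR3* (1.45). *itgam.1*, an integrin gene, was at 6.91, 1.57 and 4.35 CPM in the mutants against 15.8 to 21.1 CPM in the Wt.

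Outside the lists of growth, large falls were those of *GSTM3* (ENSDARG00000029473), a glutathione transferase, at 32.9, 31.0 and 42.2 CPM in the Wt and 3.58, 8.53 and 5.21 CPM in the mutants (log2 fold change -2.61, SE 0.37, edgeR adjusted p 0.0138), *TM4SF18*, a tetraspanning membrane protein (-2.67, SE 0.40, edgeR adjusted p 0.0144), and *CD109*, a membrane protein that binds TGF-beta in human cells (-4.07, SE 0.67, edgeR adjusted p 0.0195). *CD109* varied among the Wt libraries as well, from 6.24 to 25.8 CPM. Chosen after their values were seen, *pprc1*, a coactivator of the PGC-1 family, fell by 1.60, and *AHCY*, which clears S-adenosylhomocysteine, by 1.58. *pprc1* was at 159, 176 and 148 CPM in the Wt and at 55.3, 54.6 and 49.2 CPM in the mutants, among the more even falls.

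Of the 75 genes called higher, 5 belonged to a list of functions, and the share of all tested genes in those lists was not computed. Of 127 genes of the extracellular matrix and integrins, 2 were called higher (*THBS3* and *col24a1*) and 1 lower (*itgam.1*), with a median of 0.22. *col24a1* was near the floor, at 0 CPM in each Wt 2 dpi library and 0.786, 1.27 and 1.04 CPM in the mutants. At an unadjusted p under 0.05 by edgeR, 6 of the 127 were lower and 8 higher. Over all genes tested 10.5% were lower and 8.96% higher at that p. Of 71 lysosome and autophagy genes edgeR called 0, with 4 lower and 3 higher at an unadjusted p under 0.05, and DESeq2 called 1 lower (median 0.12).

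The circadian clock genes were higher by their order without passing the test. Of 33 tested, with a median of 0.42, edgeR called 0. DESeq2 called 8 higher and 0 lower, against 603 and 1111 of all 20484 genes tested. At an unadjusted p under 0.05 by edgeR, 14 were higher and 0 lower, against 8.96% higher and 10.5% lower over all genes tested. In every mutant library 14 were higher and 1 was lower than in every Wt library, against 9.28% and 14.5% of all genes. The list median was 0.36, 0.27 and 0.60 in mutant replicates 1 to 3 and 0.09, -0.20 and 0.11 in the Wt, so each mutant lay above each Wt library. *BHLHE41*, a repressor in the clock loop and the member with the smallest adjusted p, was at 45.5, 20.6 and 41.2 CPM in the Wt and 75.9, 59.8 and 132.7 CPM in the mutants (log2 fold change 1.32, edgeR adjusted p 0.0746). Mutant replicate 3 was the highest and Wt replicate 2 the lowest.

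Several of the higher genes share a known regulation. Chosen after the values were seen, *VEGFA*, *ANKRD37*, *ERO1A* and *AK4* are genes that rise in low oxygen in many vertebrate cells. *VEGFA* (ENSDARG00000034700), the angiogenic factor, was at 7.90, 11.3 and 11.4 CPM in the Wt and 38.0, 47.3 and 18.1 CPM in the mutants (log2 fold change 1.75, SE 0.34, edgeR adjusted p 0.0353). *ANKRD37* was at 7.29, 10.5 and 10.2 CPM in the Wt and 33.3, 37.0 and 21.2 CPM in the mutants (1.70, SE 0.28, edgeR adjusted p 0.0203). *ERO1A*, an oxidase of the endoplasmic reticulum, was at 34.4, 52.3 and 45.2 CPM in the Wt and 188, 107 and 76.8 CPM in the mutants (1.496, SE 0.30, edgeR adjusted p 0.0384). *AK4*, a mitochondrial adenylate kinase, rose by 0.98 (edgeR adjusted p 0.049). In all 4 genes mutant replicate 3 was the lowest of the mutants and still above each Wt library. Of 34 tested genes known as targets of hypoxia-inducible factors, a list made after these values were seen, edgeR called those 4 higher and 0 lower and DESeq2 called 8 higher and 1 lower. At an unadjusted p under 0.05 by edgeR, 13 were higher and 1 was lower, against 8.96% and 10.5% of all genes tested. The list's median was 0.59, and 11 were higher and 2 lower in every mutant library, against 9.28% and 14.5% of all genes. The 4 called genes are part of the list, so these counts partly follow from that choice. *LDHA* (log2 fold change 0.83, edgeR adjusted p 0.0709) and *PFKFB3* (0.76, edgeR adjusted p 0.0526) did not pass the test, and *HK2* had a log2 fold change of -1.03 (edgeR adjusted p 0.115). The other *VEGFA* ID, ENSDARG00000103542, was at 91.7, 155 and 140.2 CPM in the Wt and 214, 259 and 139 CPM in the mutants, so its groups overlapped.

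Further higher genes are given without a list to group them. *tnfrsf11b* (osteoprotegerin, a decoy receptor) was at 75.1, 84.7 and 81.2 CPM in the Wt and 231, 345 and 227 CPM in the mutants, with a log2 fold change of 1.74 (edgeR adjusted p 0.014, SE 0.26). It was at 1.21 to 2.54 CPM in uninjured MG. *CLU* (clusterin, an extracellular chaperone) was at 204, 132 and 130.2 CPM in the Wt and 415, 588 and 351 CPM in the mutants (1.54, SE 0.29, edgeR adjusted p 0.0325). *NPR3*, the clearance receptor of natriuretic peptides, was at 3.30, 2.82 and 3.17 CPM in the Wt and 40.7, 17.6 and 14.9 CPM in the mutants, a log2 fold change of 2.98 (edgeR adjusted p 0.0107, SE 0.40). Mutant replicate 1 carried more than each of the others. *NRN1* (ENSDARG00000071860), the neurite-promoting protein neuritin, was more even, at 3.13, 2.16 and 2.74 CPM in the Wt and 15, 12.7 and 12.4 CPM in the mutants (2.32, SE 0.34, edgeR adjusted p 0.014). *GFRA1* and *gfra1a*, which encode co-receptors for GDNF, rose by 2.81 and 0.95. *THBS3* (ENSDARG00000077641), a thrombospondin of the matrix, rose by 2.58 and *SEMA6C*, an axon guidance ligand, by 1.76. *actn3b*, an alpha-actinin known from muscle, rose by 4.08 (edgeR adjusted p 0.00237, SE 0.41), from 1.31, 1.51 and 0.938 CPM in the Wt to 16.8, 32.7 and 14.4 CPM.

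Regulators of transcription and translation were also among the higher genes. *INSM1* (ENSDARG00000091756), a zinc-finger factor whose zebrafish form acts in MG reprogramming, was at 7.79, 6.34 and 6.68 CPM in the Wt and 22.1, 17.2 and 17.5 CPM in the mutants (log2 fold change 1.45, SE 0.30, edgeR adjusted p 0.0417). It was at 9.52 to 20.2 CPM in uninjured MG. Also higher, and chosen after their values were seen, were *ZBTB16*, *zbtb16b*, *EEF2K* and *CPEB4*. *ZBTB16* and *zbtb16b*, which encode forms of the repressor PLZF, rose by 1.09 and 1.11. *EEF2K*, the kinase that slows elongation factor 2, rose by 0.85 (edgeR adjusted p 0.0403, SE 0.17). *CPEB4*, which binds messenger RNA, rose by 0.91 (edgeR adjusted p 0.0272, SE 0.16). *EEF2K* was at 23.9, 22.0 and 28.7 CPM in the Wt, 42.7, 45.8 and 45.6 CPM in the mutants and 58.6 to 62.2 CPM in uninjured MG.

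**Figure D4:**
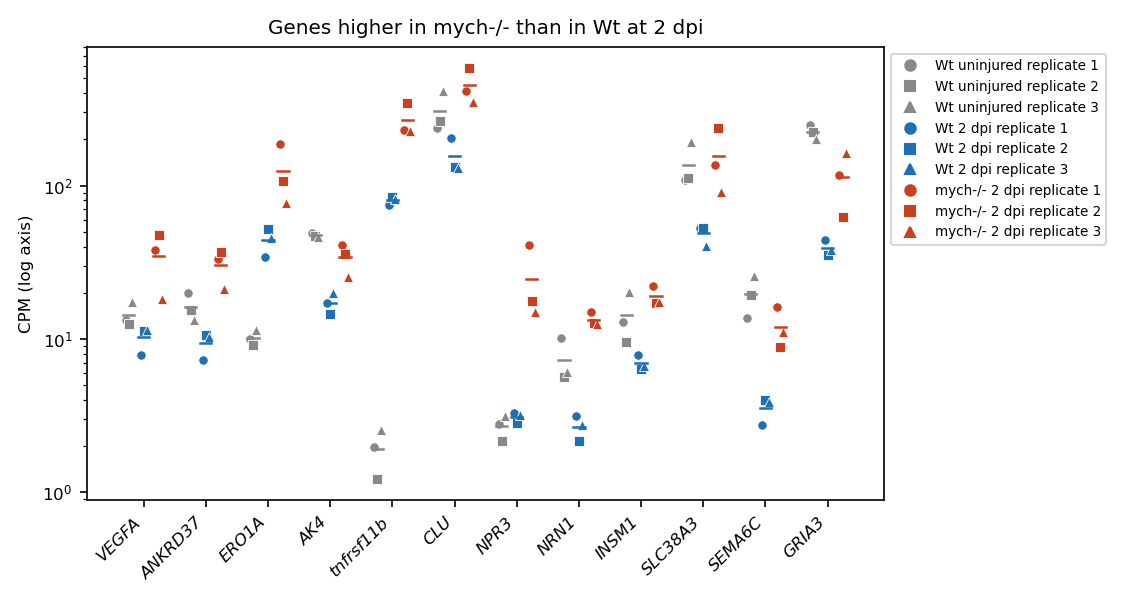
CPM (log axis) of 12 called genes that were higher in *mych*-/- than in Wt MG at 2 dpi, drawn with 1 point per library, a short line for the mean of 3 libraries and grey points for Wt uninjured MG. All 3 mutant points lie above the 3 Wt points in each gene, with *NPR3* the widest among the mutants (14.9 to 40.7 CPM) and *NRN1* among the narrowest (12.4 to 15 CPM).

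The lists of neuronal functions were higher in the mutants by their medians. Calls by edgeR were few in them, as over all genes tested, of which 0.366% were called higher. Of 165 genes of potassium, sodium and calcium channels 0 were called by edgeR, with a median of 0.81. At an unadjusted p under 0.05 by edgeR, 36 were higher and 1 lower, against 8.96% and 10.5% of all genes tested. In every mutant library 21 were higher and 1 was lower than in every Wt library, against 9.28% and 14.5% of all genes. DESeq2 called 14 of them higher and 0 lower, against 603 and 1111 of all 20484 genes tested. Of 89 axon guidance genes 1 was called, *SEMA6C*, with a median of 0.41. The channel list was at 1.08, 0.21 and 1.46 in mutant replicates 1 to 3 and at 0.75 in Wt replicate 1, so the groups overlapped. Markers of neurons moved with it. Of 35 amacrine and ganglion cell markers 0 were called by edgeR (median 0.82), with 18 higher and 1 lower at an unadjusted p under 0.05 and 4 higher and 1 lower by DESeq2, and their summed level was 1709 to 3357 CPM in the Wt and 2523 to 5002 CPM in the mutants. Of 56 synapse genes 1 was called, *GRIA3* (ENSDARG00000032737), a glutamate receptor subunit, higher by 1.54 (edgeR adjusted p 0.0328, SE 0.29), with 26 higher and 0 lower at an unadjusted p under 0.05 by edgeR and 11 higher and 0 lower by DESeq2. The synapse list summed to 2460 to 5518 CPM in the Wt and 4086 to 8912 CPM in the mutants. No marker of either list was at 0 in an injured group. Higher in every mutant than in every Wt library were 6 synapse genes and 3 amacrine and ganglion markers, against 9.28% of all genes. Lower in every mutant library were 0 and 2, against 14.5%. By library, the synapse median was 1.01, 0.13 and 1.55 in the mutants and 0.64, -0.56 and -0.13 in the Wt. Of 17 bipolar cell markers 0 were called by edgeR or DESeq2 (median 0.63). At an unadjusted p under 0.05 by edgeR, 8 were higher and 0 lower. Their sums did not overlap, at 352 to 560 CPM in the Wt and 630 to 778 CPM in the mutants. By list median, mutant replicate 2 (0.24) lay below Wt replicate 1 (0.30). Horizontal cell markers summed to 427 to 510 CPM in the Wt and 363 to 439 CPM in the mutants. Their fold changes mostly went the other way, with 8 of 9 above 0 and 1 below (median 0.45), and 0 called by edgeR or DESeq2. By list median, the mutants were at 0.73, 0.55 and 0.62 and the Wt at 0.28, 0.08 and -0.07. The part of neuronal RNA in the channel and synapse values was not tested. Without Wt replicate 1, 18 channel genes and 10 synapse genes were called higher, and without mutant replicate 2, 14 and 13. Without Wt replicate 2 or 3, or mutant replicate 1 or 3, 0 genes of either list were called. Of 11 oligodendrocyte markers 9 had a log2 fold change above 0 (median 0.26), with 3 higher and 1 lower at an unadjusted p under 0.05 by edgeR, and the 1 called was *cnp*, which fell by 1.01.

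A last group of genes was present in 1 genotype and at the floor in the other, the floor being at most 3 counts in each library. At 50 or more counts in each Wt 2 dpi library and at the floor in each mutant were 10 genes, of which 7 were called. The reverse held for 6 genes, of which 2 were called. *mhc1uba*, a class I MHC gene, held 3273, 2929 and 1667 counts in the Wt and 0 in each mutant, at least 836-fold lower against a floor of 3 counts per library. It also held 0 counts in each uninjured library. *fkbp15a* held 1168, 2194 and 958 counts in the Wt and 0 in each mutant, at least 446-fold lower. *SMC1A* (ENSDARG00000055754) held 334, 96 and 329 counts in the Wt, 747 to 767 in the uninjured libraries and 0 in the mutants. Another ID with the symbol *SMC1A*, ENSDARG00000058203, was at 197, 226 and 268 CPM in the Wt and 184, 225 and 196 CPM in the mutants. *CCS*, the copper chaperone of superoxide dismutase, showed the same arrangement. Its ID ENSDARG00000116246 held 221, 290 and 110 counts in the Wt and 1, 0 and 0 in the mutants, and ENSDARG00000092003 was at 19.8 to 23.1 CPM in the Wt and 18.6 to 23.5 CPM in the mutants. In the other direction si:ch211-57b15.2 held 0, 0 and 1 counts in the Wt at 2 dpi, 190, 312 and 222 in the mutants and 158 to 307 in uninjured Wt MG. Of the 10 genes at the floor in mutants, 5 were above it in all 3 uninjured Wt libraries, and so were 2 of the 6 at the floor in Wt 2 dpi MG. Sequence that differs between the fish stocks and an effect of the *mych* genotype cannot be told apart here, and the part of either was not tested.

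**Figure D5:**
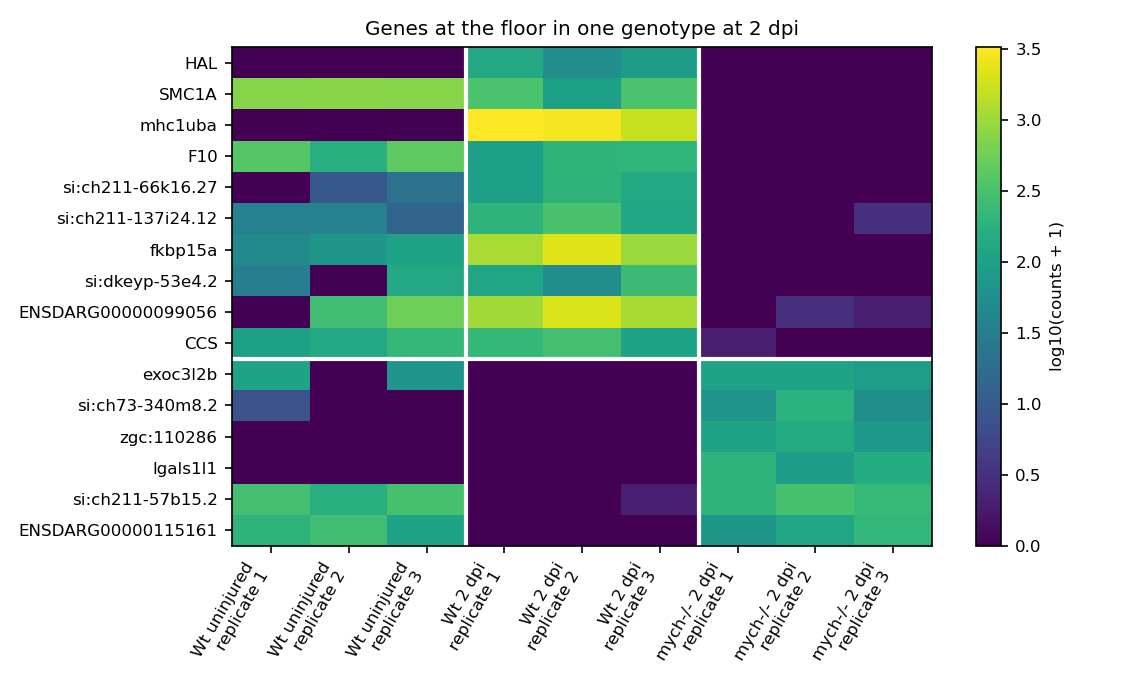
Counts, as log10(counts + 1) on the colour scale, of the 16 genes at or under 3 counts in every library of 1 genotype at 2 dpi and at 50 or more in every library of the other, with genes in rows and the 9 libraries in columns. The upper 10 genes are dark in the mutant columns, the lower 6 are dark in the Wt 2 dpi columns, and 5 of the upper and 2 of the lower genes are above the floor in all 3 uninjured libraries.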

How the data were processed

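GFP+ MG were sorted from *gfap:GFP* zebrafish retinas and sequenced as polyadenylated RNA in 9 libraries. The submitters' processing notes name cutadapt 2.3, FastQC 0.11.8, STAR 2.7.8a, RSEM 1.3.3 and DESeq2, and the study's methods give the zebrafish genome as GRZc11, spelled so. The authors deposited whole-number counts per gene for 23707 IDs, not normalized. Where genes resemble each other, the assignment of reads to 1 of them is uncertain.

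Counts were fitted with edgeR 4.0.16 (R 4.3.3) by the robust quasi-likelihood test, with TMM scaling, filterByExpr by group and all 9 libraries in 1 fit, since the groups share the estimate of the spread. Benjamini-Hochberg adjustment ran over 20484 genes tested. Calls required an adjusted p no higher than 0.05 and a log2 fold change beyond 0.5 (the thresholds of the study, apart from its FPKM minimum, which was left out). CPM are scaled by TMM, and log2 ratios by library use a prior count of 2. Totals were 46835977 to 77133615 counts per library. The test was also run on simulated counts with known changes, where it missed many changed genes and called a few unchanged ones. Tables and plots were made with Python 3.11.15, pandas 2.3.3 and matplotlib 3.10.9.

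Members and lists were chosen with earlier results of these data known, and the hypoxia list and the rule for genes at the floor after seeing values. Genes chosen by rule were *mych* and up to 4 called members of each list with the largest change. The rule also took the 15 largest falls and rises among genes with at least 5 CPM in the higher group. It further took the 5 with the smallest and 5 with the largest range over mutant libraries. Some of these genes are not named in the text. Other genes named were chosen after their values were seen. Alternatives were other scalings, DESeq2 1.42.0, no filter, the 6 libraries alone, a fit that was not robust, a replicate block, other thresholds and leaving out each library.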

Additional observations from a re-analysis of the deposited data

How the results depend on the processing

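The number of called genes depended on the scaling, the tool and the libraries. None of the called genes among the 90 chosen by the rule changed direction, and other genes named were not run. A reversal was counted only for called genes, so not for *mych*. The called genes had no overlap between genotypes to begin with, which left little room for a reversal. Other thresholds kept the same fit and could not change a direction. The absence of reversals therefore supports nothing further. Over these 90 genes and 1710 combinations of gene and alternative, 0 reversed and 556 no longer passed the threshold. Against 347 calls (75 higher, 272 lower), scaling by library size alone gave 214 (63 higher, 151 lower), upper quartile scaling 221 (64 higher, 157 lower), the 6 libraries alone 219 (38 higher, 181 lower) and DESeq2 1714 (603 higher, 1111 lower), which held all 75 and 272. Among these calls DESeq2 placed 35.2% on the higher side, against 21.6% as reported. Library size alone moved the median of all genes from 0.03 to 0.11. With 1 library left out, calls ranged from 8 to 1026, those higher from 2 to 436 and those lower from 6 to 627. A fit with the replicate number as a block gave 111 calls (25 higher, 86 lower). The numbers share no stated animal or day, and deviations of same-numbered libraries correlated at -0.05 to 0.09, so the block was not taken as a pairing. RLE scaling, no filter and a fit that was not robust gave 329, 459 and 327 calls.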
